A study of Mus musculus with 42 samples.

Results

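A set of 193 genes, of 14296 measured, was high in undifferentiated mouse embryonic stem cells, low after 48 h of differentiation and high again at 120 h. The genes were chosen from the values themselves. On the log2 CPM scale, where CPM is a gene's reads scaled to a common library size, the duplicate means at 0 h and at 120 h were both 0 or more, and in replicate A and in replicate B alike the values at 0 h and at 120 h exceeded that at 48 h by 2 or more, which is a 4-fold difference. Poly-A RNA was sequenced from W9.5 embryonic stem cells of the 129X1/SvJ background. The low passage cells were left to form embryoid bodies without direction after leukaemia inhibitory factor (LIF) was withdrawn, and were harvested at 21 time points, every 6 h from 0 h to 120 h. Each time point had 2 libraries, A and B, from biological duplicate cultures of this single line, 42 libraries in all, and no undifferentiated culture of the later times was analysed here, so that time in culture and differentiation cannot be told apart.

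In embryonic stem cells LIF acts through STAT3 and keeps a network of naive pluripotency transcription factors active, among them Klf4, Tbx3, Tfcp2l1 and Prdm14. When LIF is removed these factors are shut down, cells pass through a primed state resembling the epiblast, and embryoid bodies then form germ layers together with an outer layer of epithelium. Keratins, laminins, annexins, gap junction channels and small heat shock proteins are proteins of epithelia and of cells under mechanical load, and some of their genes are also active in cultured stem cells. In RNA from whole cultures, fewer cells of a type and less RNA per cell cannot be told apart.

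The libraries held a median of 29692082 counted reads, from 10120972 to 51652434, so that 3 reads stood for 0.057 to 0.316 CPM. Duplicates of the members differed with a median SD of 0.079 to 0.463, depending on the time point. The 96 h duplicates stood apart, with 0.463 over the members and 0.288 over all genes. At 96 h, 19 members were higher in B by 1 or more on the log2 scale and 36 were lower by as much, and over all genes these shares were 5.42% and 8.12%. Neither the rule nor any test below compared 96 h with another time point, although the 96 h libraries entered the common estimate of the spread.

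The values that chose the members are given as a description. The median difference between 0 h and 48 h was 3.2 on the log2 scale, and that between 120 h and 48 h was 3.16. The smaller of both differences ran from 2.01 to 7.07, with a median of 2.79. Msln, Mall, Cdx1, Jdp2, Gprc5a, Ly6g6e, Itgb3, Gad1 and Synpo were among the genes with the largest smaller difference. Just inside the threshold, the smallest of the 4 differences was 2.006 for Calcoco2, 2.007 for Ccdc60 and 2.012 for Mfge8. Just outside it stood Nccrp1 with 1.996, Lrrc75a with 1.996 and Ppp3cc with 1.995.

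At the low point, 93 of the 193 members were below 1 CPM in both 48 h libraries, and 7 had 3 reads or fewer in both. Mall, a proteolipid of membrane rafts, had 0 reads in both 48 h libraries, against 55 and 66 reads at 0 h and 54 and 48 reads at 120 h. Taking 3 reads per library as the floor, its level was at least 22.3-fold higher at 0 h and at least 18.6-fold higher at 120 h than at 48 h. Msln had 0 and 1 reads at 48 h, Cdx1 0 and 3, and Gad1 1 and 3, so the sizes of their differences depend on the offset of 0.5 reads in the values.

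The final level was near the first for most members. The 120 h mean lay within 1 of the 0 h mean in 123 members, 1 or more above it in 33 and 1 or more below it in 37, and the median difference was -0.14. Pdgfb, a growth factor ligand, ended 4.13 above its first level, followed by Tinagl1 at 3.59 and Krt19 at 3.12. At the other end, Serpinb6c, a serine protease inhibitor, ended 3.47 below its first level, a difference of -3.47, and Xaf1 had a difference of -3.35. The lowest mean of the course fell between 36 h and 66 h in 159 members, at 42 h in 52 and at 48 h in 44. It came at 30 h or before in 25 members, and after 66 h in 9, which included Klf4, Tcl1 and Xaf1 at 72 h, Cryab at 78 h and Klf2 at 84 h.

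**Figure D1:**
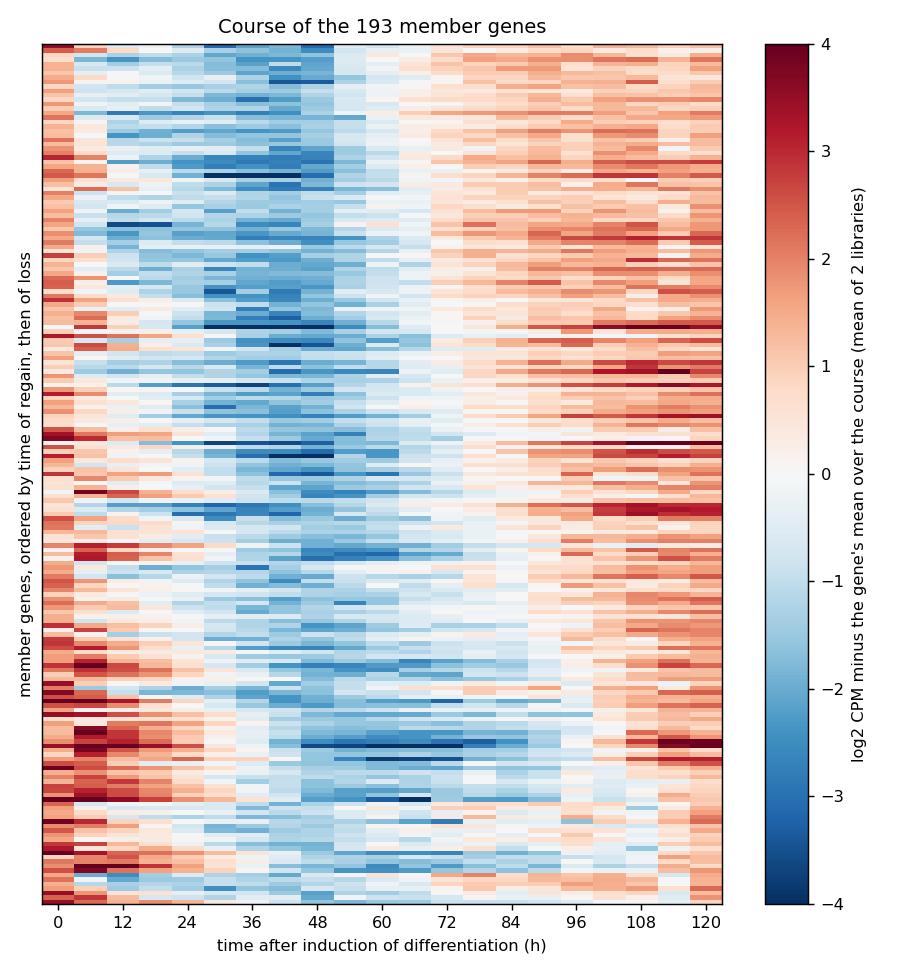
Each row is a member gene and each column a time point (h). The colour is the mean of both libraries on the log2 CPM scale minus the gene's mean over the course, with red above and blue below it. Rows are ordered by the time of regain, the first time point from which a member stayed at or above the midpoint of its rise, and a blue band around 48 h crosses the rows.

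Of the 193 members, 188 were protein coding, and they lay on 20 chromosomes. RefSeq promoter windows of 300 bases, from 250 before to 50 after a start site, were at hand for 137 members (177 windows), and for 10808 of the measured genes (13880 windows). The letters TGANTCA, a loose form of the site of AP-1 factors such as Fos and Jun, allow any middle base and read alike on both strands. They stood in 10.7% of the members' windows and in 4.8% of all windows. Forms with A or T in the middle, such as TGAATCA in Tinagl1 and TGATTCA in Plet1, were counted with those with C or G. Shares by form were not computed. The other motifs were searched on both strands. GCCNNNGGC (TFAP2) stood in 30.5% against 25.2%, TTCNNNGAA (STAT) in 8.5% against 6.5%, TATAAA in 9.0% against 7.0%, GGGNGTGG (KLF) in 24.3% against 23.5%, GGAATG (TEAD) in 11.9% against 12.3%, AACNNGTT (GRHL) in 4.0% against 3.3%, GAANNTTC (heat shock factor) in 5.1% against 5.7% and CACGTG in 6.2% against 9.9%. The median ratio of observed to expected CpG was 0.58 in the members' windows and 0.74 in all windows. It was 0.54 in windows of non-members that were lost at 48 h by the same threshold. In windows of genes with a peak at 48 h it was 0.47, so a low ratio was not particular to the members. These shares are descriptions with no test, and a match is not a bound site.

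The 250 bases before the start site are printed, from GRCm38.p6 as in RefSeq. They are given for 5 members with TGANTCA and for Socs3 with the STAT letters, genes whose values are described further on. Matches are in capitals.
Tinagl1 (AP-1 and TEAD letters, chr4:130175123-130175372, minus strand): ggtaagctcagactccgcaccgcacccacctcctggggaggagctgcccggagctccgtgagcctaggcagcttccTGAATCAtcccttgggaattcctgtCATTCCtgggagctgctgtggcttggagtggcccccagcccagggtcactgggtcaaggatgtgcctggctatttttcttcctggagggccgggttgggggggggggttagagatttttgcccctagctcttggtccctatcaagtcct
Xaf1 (AP-1, chr11:72301379-72301628, plus strand): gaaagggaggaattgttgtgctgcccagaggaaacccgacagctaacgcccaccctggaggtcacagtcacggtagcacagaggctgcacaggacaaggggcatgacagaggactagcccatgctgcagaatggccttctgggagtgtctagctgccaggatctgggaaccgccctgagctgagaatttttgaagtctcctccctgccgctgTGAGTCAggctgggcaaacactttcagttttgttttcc
Anxa2 (AP-1, chr9:69453433-69453682, plus strand): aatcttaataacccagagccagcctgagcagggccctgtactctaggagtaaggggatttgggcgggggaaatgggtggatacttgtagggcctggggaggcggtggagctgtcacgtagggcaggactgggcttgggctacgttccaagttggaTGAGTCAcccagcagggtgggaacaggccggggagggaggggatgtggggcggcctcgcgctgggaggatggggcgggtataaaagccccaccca
S100a11 (AP-1, 2 matches, chr3:93520246-93520495, plus strand): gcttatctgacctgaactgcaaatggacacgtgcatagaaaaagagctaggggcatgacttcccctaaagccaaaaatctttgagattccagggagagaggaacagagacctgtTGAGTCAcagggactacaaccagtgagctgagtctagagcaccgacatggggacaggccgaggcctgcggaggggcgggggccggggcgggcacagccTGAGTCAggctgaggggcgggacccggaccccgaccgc
Plet1 (AP-1, chr9:50494275-50494524, plus strand): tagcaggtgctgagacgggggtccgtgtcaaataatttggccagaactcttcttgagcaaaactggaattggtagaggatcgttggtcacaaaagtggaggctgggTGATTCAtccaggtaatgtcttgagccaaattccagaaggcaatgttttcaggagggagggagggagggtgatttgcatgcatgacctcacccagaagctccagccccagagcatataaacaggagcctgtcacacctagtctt
Socs3 (STAT, chr11:117969367-117969616, minus strand): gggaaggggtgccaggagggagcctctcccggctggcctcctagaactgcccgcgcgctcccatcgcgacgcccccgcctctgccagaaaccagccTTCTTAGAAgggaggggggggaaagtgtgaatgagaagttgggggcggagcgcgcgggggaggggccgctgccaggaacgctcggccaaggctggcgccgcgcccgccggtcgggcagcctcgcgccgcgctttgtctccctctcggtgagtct
The match began 174 bases before the start site in Tinagl1, 38 in Xaf1, 95 in Anxa2 and 144 in Plet1. In S100a11 the matches began 136 and 38 bases before it, and the STAT match of Socs3 began 154 bases before it. The AP-1 and TEAD matches of Tinagl1 did not overlap.

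Whether the fall and the rise also held in libraries that the rule did not use was tested with limma over all genes, with p-values adjusted by Benjamini-Hochberg and called at adjusted p < 0.0001. At 42 h against 6 h, 143 members were lower, where 10.5% of all genes tested were called lower, and 0 members were higher, where 11.5% were called higher (0 members also at an unadjusted p under 0.05). The members' median difference was -2.6 (0.02 over all genes), and 185 members were lower in A and in B alike. At 114 h against 54 h, 143 members were higher, where 11.2% of all genes were called higher, and 0 were lower, where 7.75% were called lower (0 also at an unadjusted p under 0.05). Their median difference was 2.5 (-0.02 over all genes), with 191 members higher in both replicates. These time points lie next to those of the rule, so a gene with a smooth course carries its pattern into them. For the counts of 185 and 191 members with the same sign in both replicates, the share over all genes was not computed.

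Both changes were called in 122 members, where 646 genes (4.52%) met both. The fall alone was called in 21 members, the rise alone in 21 and neither in 29. Among the 29 were Cdx1, a caudal-type homeobox gene, with differences of -4.27 (SE 1.03) and 3.94 (SE 1.03), Gja4, and 4 of the 5 members without a protein-coding annotation. Wide errors accompanied the low reads of Cdx1, with 5 and 0 reads at 42 h and 5 and 1 at 54 h. Synpo, which binds actin, was called for the rise alone. Much of its fall came before 6 h, with 1.58 and 1.30 at 0 h, -1.54 and -1.64 at 6 h and -2.67 and -3.50 at 48 h.

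**Figure D2:**
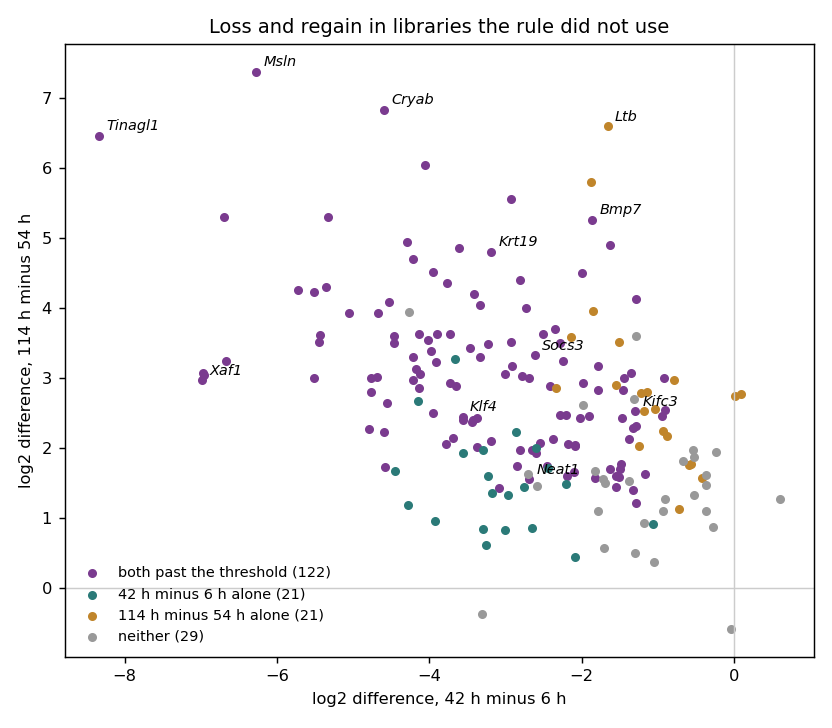
Each point is a member gene, with its log2 difference between 42 h and 6 h on the horizontal axis and between 114 h and 54 h on the vertical axis, neither of which the rule used. Colours give which differences passed adjusted p < 0.0001 in limma, both in 122 members, and most points lie in the upper left, lost and then regained.

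Split by interval, the fall was called in 83 members between 6 h and 24 h (5.76% of all genes lower) and in 64 between 24 h and 42 h (2.29%). From 6 h to 24 h the difference was above 0 in 20 members, 4 of them at an unadjusted p under 0.05, and 1 was called higher, where 5.64% of all genes were called higher. Kifc3, a kinesin motor, went from 4.31 and 4.54 at 6 h to 5.51 and 5.70 at 24 h (difference 1.18, SE 0.16, adjusted p = 8.7e-07). The rise was called in 78 members between 54 h and 78 h (3.43% higher), in 39 between 78 h and 102 h (2.5%) and in 14 between 102 h and 114 h (0.741%). In the same intervals from 24 h on, 0 members were called in the opposite direction by limma, where 2.08% of all genes were called higher from 24 h to 42 h and 1.85%, 1.57% and 0.595% lower in the intervals of the rise. Members with a difference of the opposite sign numbered 12 from 24 h to 42 h, and 6, 22 and 71 in the intervals of the rise. At an unadjusted p under 0.05 they numbered 1, and then 0, 5 and 30. For these counts by sign the share over all genes was not computed. The median difference from 24 h to 42 h was -1.17 in the members and 0.03 over all genes. In the intervals of the rise it was 1.5, 0.8 and 0.27 in the members and 0.02, -0.02 and 0.02 over all genes.

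Leaving out any single library of a contrast lowered its count, both by interval and over the long spans, 114 h against 6 h included. A time point is then left with a single library, so a lower count does not mark the removed library as unusual. The libraries whose removal gave the lowest counts in each interval are named here. From 6 h to 24 h, 52 members were called without 24 h replicate A and 54 without 6 h replicate B. From 24 h to 42 h there were 42 without 24 h replicate A and 39 without 24 h replicate B. For the rise from 54 h to 78 h there were 46 without 78 h replicate B, 47 without 54 h replicate A and 50 without 54 h replicate B. From 78 h to 102 h there were 25 without 102 h replicate B and 23 without 78 h replicate A. From 102 h to 114 h there were 7 without 114 h replicate A, 8 without 114 h replicate B, 9 without 102 h replicate A and 7 without 102 h replicate B.

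The late level was compared with the early one at 114 h against 6 h. Here 53 members were higher, where 17% of all genes were called higher, and 28 were lower, where 10.3% were. Higher at the late time were Ltb, a cytokine of the tumour necrosis factor family, by 5.45 (SE 0.32, adjusted p = 5.8e-14), and Hspb8 by 4.16 (SE 0.21, adjusted p = 2.66e-15). Lower at the late time were Serpinb6c, with -3.8 (SE 0.64, adjusted p = 1.13e-05), and Klk10, a secreted kallikrein protease, with -3.77 (SE 0.49, adjusted p = 2.16e-07).

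**Figure D3:**
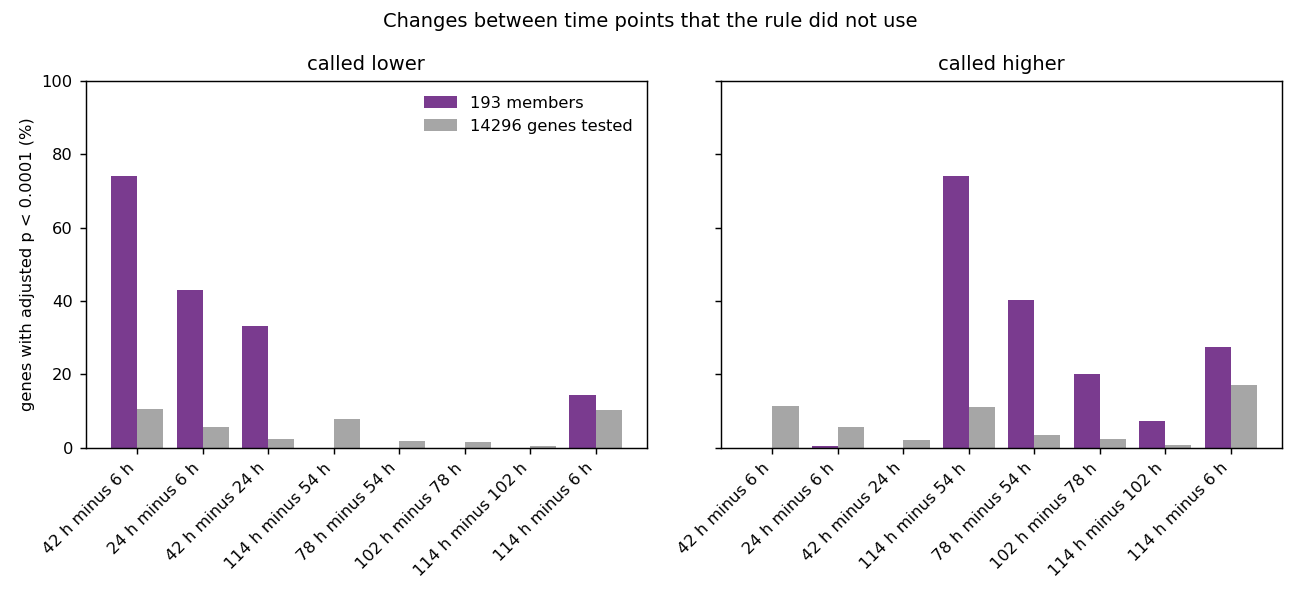
Bars give the percentage of genes called lower (left) and higher (right) at adjusted p < 0.0001 in 8 contrasts between time points that the rule did not use, for the 193 members (purple) and all 14296 genes (grey). The members exceed all genes in the direction of the fall before 48 h and of the rise after it, and lie closer to all genes at 114 h against 6 h.

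Naive pluripotency factors held 6 members. Klf4, a zinc finger factor of the reprogramming set, stood at 8.40 and 8.46 log2 CPM at 0 h (replicates A and B), 3.14 and 3.22 at 48 h and 5.99 and 5.90 at 120 h. Prdm14, which represses lineage genes and DNA methylation in naive cells, stood at 4.66 and 4.69, then 0.57 and 0.52, then 3.87 and 3.82. Tfcp2l1, a naive-state factor downstream of LIF, had 8.80 and 8.71, 5.70 and 5.53, and 7.95 and 7.83. In all 3 genes the 120 h values lay below those at 0 h.

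Tbx3, a T-box repressor, fell by 4.13 from 6 h to 42 h (SE 0.28, adjusted p = 9.58e-13) and rose by 2.85 from 54 h to 114 h (SE 0.28, adjusted p = 2.17e-09). Prdm14 fell by 4.47 (SE 0.23) and rose by 3.6 (SE 0.23), Klf4 fell by 3.56 (SE 0.21) and rose by 2.44 (SE 0.21), and Tfcp2l1 fell by 2.55 (SE 0.19) and rose by 2.07 (SE 0.19). Tcl1, a coactivator of the kinase Akt, fell by 3.65 and rose by 2.88 (SE 0.27 for both). Klf2 fell by 2.46 (SE 0.33, adjusted p = 4.11e-07). Its rise of 1.74 (SE 0.33, adjusted p = 6.95e-05) was not called without any 1 of the 4 libraries involved, with 1.44 to 2.05.

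These 6 genes were late in both directions. Their midpoint of loss was crossed between 24 h and 36 h and that of regain between 108 h and 114 h, against medians of 18 h and 78 h over all members. The means of Tbx3 and Klf2 were already above the midpoint of regain at 96 h, with 5.48 and 5.53. They were below it at 102 h, with 4.48 and 4.78, so the later time was taken. In replicate A alone the time of regain of Tbx3 was 96 h. At 96 h the duplicates of Prdm14 had an SD of 0.75 and those of Tbx3 one of 1.12, against 0.03 and 0.04 at 120 h. Of the 18 naive factors measured, 14 were called lower at 42 h than at 6 h, 11 higher at 114 h than at 54 h, and 10 both, with medians of -2.51 and 1.55. The 10 included the 6 members, which the rule chose for this course. Members are counted in the same way in the lists described below. Nanog was among the 10 without being a member, with means of 8.89 at 0 h, 7.0 at 48 h and 8.43 at 120 h. It was named after its values were seen. Over all genes the medians were 0.02 and -0.02. Of 11 core pluripotency genes, which include Pou5f1 and Sox2, 0 were members, 1 was called lower and 0 higher.

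Genes of LIF and STAT signalling were among the members. Socs3, the feedback inhibitor of the LIF receptor and a direct STAT3 target, stood at 5.12 and 5.12 at 0 h, 3.23 and 3.20 at 6 h, 0.27 and 0.63 at 48 h and 4.75 and 4.57 at 120 h. Bcl3, an IkappaB family cofactor, stood at 4.11 and 4.08, 0.50 and 0.49, and 3.34 and 3.44 at 0 h, 48 h and 120 h. Their midpoints of regain were 72 h for Socs3 and 66 h for Bcl3, both before the earliest of the naive factors at 108 h. In the unused libraries Socs3 fell by 2.61 (SE 0.23, adjusted p = 3.36e-10) and rose by 3.32 (SE 0.23, adjusted p = 3.87e-12), and Bcl3 fell by 2.02 and rose by 2.42 (SE 0.17 for both).

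Stat5a and Stat5b, transcription factors of cytokine receptors, lie head to head on chromosome 11 with start sites 8627 bp apart. Stat5a stood at 3.31 and 3.13 at 0 h, 0.35 and 0.16 at 48 h and 3.29 and 3.09 at 120 h. Stat5b stood at 4.68 and 4.52, 2.34 and 2.29, and 4.67 and 4.58. In both genes the values at 120 h overlapped those at 0 h, and they crossed the midpoint of regain at 60 h and 66 h. Stat5a fell by 1.55 (SE 0.20) and rose by 1.44 (SE 0.20). Stat5b fell by 1.48 (SE 0.21, adjusted p = 1.36e-06), a call that was lost without 42 h replicate B (-1.34) and without 6 h replicate A (-1.33), and rose by 1.77 (SE 0.21). The genes are closely similar paralogs, so the split of reads between them is uncertain.

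Gap junction channels, which join the cytoplasm of neighbouring cells, were also among the members. Gjb5, a connexin of epithelia and placenta, stood at 3.82 and 3.81 at 0 h, 2.13 and 2.02 at 6 h, -0.98 and -0.14 at 48 h and 2.74 and 2.54 at 120 h. Its level at 120 h was below that at 0 h. Gjb5 fell by 2.28 (SE 0.33, adjusted p = 1.85e-06), not called without 42 h replicate A (-1.87), and rose by 2.47 (SE 0.33). Gja4, a connexin of endothelium and oocytes, had differences of -2.58 and 1.45 (SE 0.60) that did not pass.

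Of the 16 genes of the LIF and STAT3 list, to which Gjb5 was assigned as a LIF target, 11 were called lower, 11 higher and 10 both, with medians of -1.12 and 1.2. Lif itself, no member and named after its values were seen, had means of 1.56, 1.33 and 3.33 at 0 h, 48 h and 120 h.

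**Figure D4:**
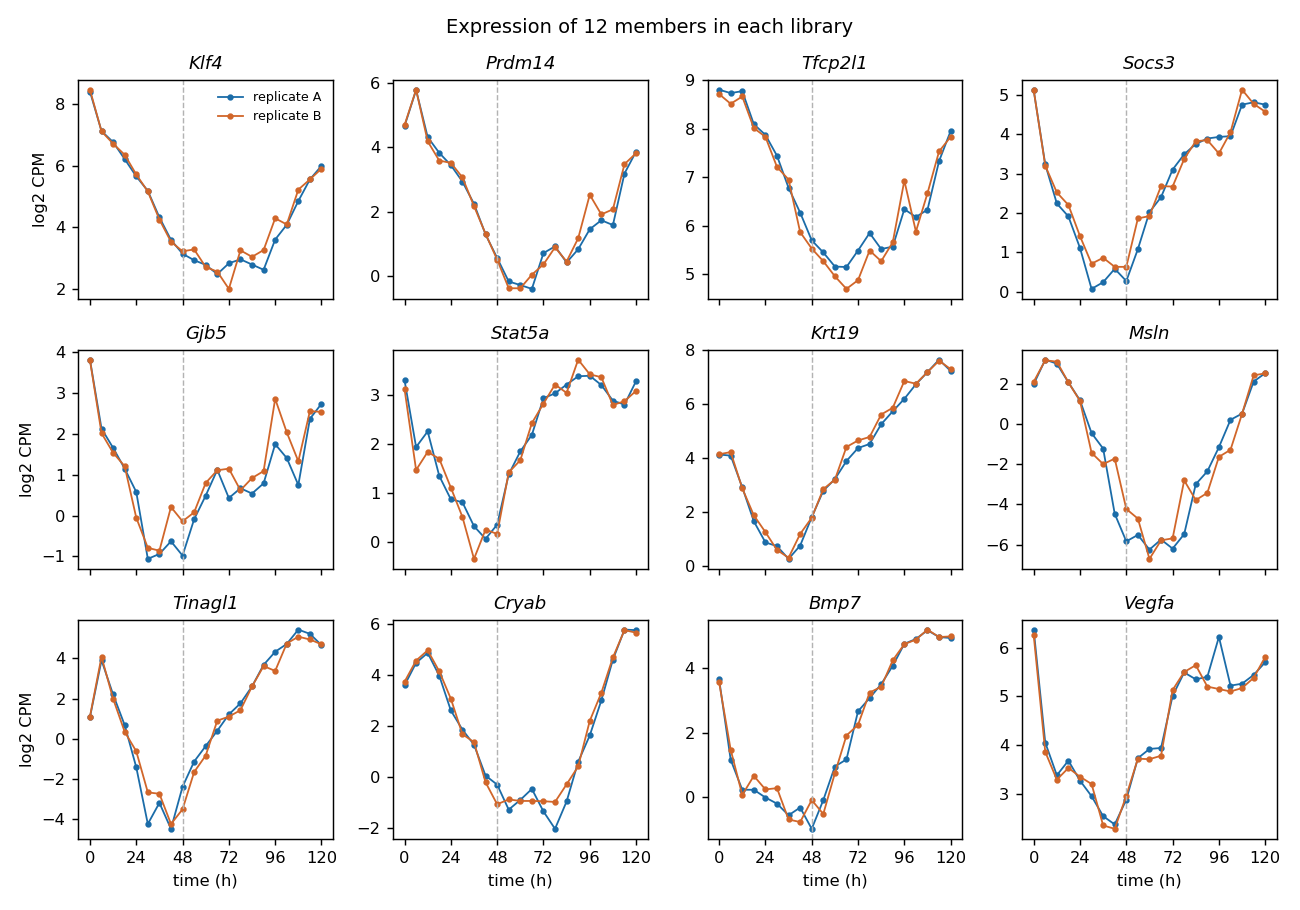
Log2 CPM of 12 members against time (h) in replicate A (blue) and replicate B (orange), with a dashed line at 48 h. Stat5a, Vegfa and Bmp7 were back at or above the midpoint of their rise by 72 h, Klf4, Prdm14 and Tfcp2l1 only at 108 h or later, and Tinagl1 and Prdm14 were higher at 6 h than at 0 h before they were lost.

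Some epithelial and surface genes were also among the members. Msln, which encodes the surface protein mesothelin, stood at 1.97 and 2.09 at 0 h, 3.19 and 3.16 at 6 h, -5.84 and -4.23 at 48 h and 2.52 and 2.51 at 120 h. Krt19, a keratin of simple epithelia, stood at 4.14 and 4.15, 4.10 and 4.23, 1.82 and 1.80, and 7.23 and 7.30. Both genes ended above their first level, Krt19 by the wider margin.

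In the unused libraries Msln fell by 6.27 (SE 0.74, adjusted p = 5.28e-08) and rose by 7.37 (SE 0.74, adjusted p = 3.98e-09), with 0 and 1 reads at 54 h and 89 and 133 at 114 h. Krt19 fell by 3.19 (SE 0.18, adjusted p = 2.6e-14) and rose by 4.8 (SE 0.18, adjusted p = 5.62e-18). Lamb3, a chain of an epithelial laminin, fell by 4.17 and rose by 3.13 (SE 0.35 for both). Anxa8, a calcium-dependent membrane-binding annexin, fell by 3.9 and rose by 3.62 (SE 0.32 for both). S100a11, a calcium-binding protein of the cornified envelope, fell by 2.51 and rose by 3.62 (SE 0.16 for both). Plet1, a surface protein of placental and epithelial progenitors, fell by 3.73 and rose by 3.62 (SE 0.40 for both).

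Keratin and cornified envelope genes numbered 20 among the measured genes, of which 15 were called lower, 15 higher and 13 both, with medians of -2.43 and 3.35. Anxa8, Krt19 and S100a11 were the 3 members. Krt8 and Krt18, for example, were called lower and higher too, but their 0 h and 48 h means were 5.5 and 4.59 for Krt8 and 4.5 and 4.48 for Krt18, so neither was lost by 2 at 48 h. Both were named after their values were seen. Of 41 epithelial junction and adhesion genes, 13 were lower, 21 higher and 10 both (medians -0.27 and 0.77), with Lamb3 among the 2 members. Of 11 membrane-anchored surface genes of mesothelium and gland, 6 were lower, 5 higher and 5 both (medians -1.83 and 1.52), with Msln and Ly6g6e the 2 members.

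Genes of the cell cortex, caveolae and nuclear lamina included members that were higher at 6 h than at 0 h. Tinagl1, a secreted matricellular protein, stood at 1.07 and 1.10 at 0 h, 3.90 and 4.07 at 6 h, -2.38 and -3.50 at 48 h and 4.65 and 4.69 at 120 h. Anxa2, an annexin that links membranes to actin, stood at 5.79 and 5.82, 7.49 and 7.54, 2.44 and 2.73, and 7.12 and 7.19. Lmna, which encodes lamins A and C, stood at 5.76 and 5.75, 7.98 and 8.02, 3.19 and 3.52, and 6.14 and 6.13. In each of them all 6 h values were above all values at 0 h and 48 h.

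From 6 h to 42 h Tinagl1 fell by 8.34 (SE 0.38, adjusted p = 3.65e-16), to 1 read in each library at 42 h, so the size depends on the offset. It rose by 6.46 from 54 h to 114 h (SE 0.38, adjusted p = 1.05e-13). Anxa2 fell by 5.05 and rose by 3.93 (SE 0.13 for both), Lmna fell by 3.91 and rose by 3.22 (SE 0.13 for both), and Cavin1, a coat protein of caveolae, fell by 4.76 and rose by 3.0 (SE 0.09 for both). Of 36 genes listed as actin cytoskeleton, YAP and SRF targets, 14 were called lower, 31 higher and 14 both, with medians of -0.71 and 3.02. These 4 genes were the members among them.

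Small heat shock proteins gave 3 members. Cryab, the lens and muscle chaperone alpha B crystallin, stood at 3.59 and 3.73 at 0 h, -0.29 and -1.06 at 48 h and 5.75 and 5.65 at 120 h. Hspb2, its neighbour on the opposite strand of chromosome 9 with a start site 1029 bp away, stood at 3.74 and 3.88, -1.20 and -1.73, and 2.64 and 2.59. Hspb8, a chaperone of selective autophagy, stood at 2.88 and 2.76, 0.70 and 0.56, and 5.39 and 5.29. Cryab and Hspb8 ended above their first level and Hspb2 below it.

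Cryab fell by 4.59 (SE 0.28, adjusted p = 1.74e-13) and rose by 6.83 (SE 0.28, adjusted p = 5.21e-17). Most of this rise came late, with 4.64 from 78 h to 102 h (adjusted p = 2.6e-12) and 2.61 from 102 h to 114 h (adjusted p = 4.76e-07). Hspb2 fell by 2.73 and rose by 3.99 (SE 0.32 for both). Hspb8 rose by 4.12 (SE 0.21, adjusted p = 6.34e-15). Its fall of 1.28 (SE 0.21, adjusted p = 1.31e-05) was not called without 42 h replicate B (-0.8), without 6 h replicate A (-1.21) or without 6 h replicate B (-1.35). It was not called with voom weights either (-1.27). The annotated Cryab and Hspb2 genes overlap at their start sites. The library kit kept the strand, but the strand setting of the counting was not given in the sources used here. Of 13 small heat shock and inducible chaperone genes, 5 were called lower, 4 higher and 3 both (medians -1.06 and 0.4). The 3 called both ways were the 3 members, which the rule chose for this course, and no other gene of the list was called both ways.

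Secreted ligands with this course acted in several pathways. Vegfa, the main angiogenic growth factor, stood at 6.37 and 6.26 at 0 h, 4.05 and 3.86 at 6 h, 2.88 and 2.96 at 48 h and 5.70 and 5.81 at 120 h. Bmp7, a ligand of the BMP receptors, stood at 3.65 and 3.56, 1.16 and 1.47, -0.98 and -0.09, and 4.93 and 4.98. Hbegf, which activates the EGF receptor, stood at 4.82 and 4.90, 8.21 and 8.09, 1.93 and 1.76, and 4.92 and 5.04. Vegfa and Bmp7 were thus lost by 6 h, whereas Hbegf was higher at 6 h than at 0 h.

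Bmp7 fell by 1.86 from 6 h to 42 h (SE 0.25, adjusted p = 4.22e-07) and rose by 5.26 from 54 h to 114 h (SE 0.25, adjusted p = 7.84e-16), of which 3.46 came between 54 h and 78 h. Vegfa fell by 1.63 and rose by 1.69 (SE 0.19 for both). Hbegf fell by 5.44 and rose by 3.61 (SE 0.20 for both), and Pdgfb fell by 4.05 and rose by 6.04 (SE 0.28 for both). Wnt6 fell by 4.29 (SE 0.59, adjusted p = 7.66e-07) and rose by 4.94 (SE 0.59, adjusted p = 9.89e-08), the second not called with voom weights (4.92). Ltb rose by 6.59 (SE 0.32, adjusted p = 2.03e-15), while its difference of -1.66 from 6 h to 42 h did not pass (adjusted p = 0.000105) except in the fit with a replicate block.

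Xaf1, a proapoptotic interferon-responsive gene, had 866 and 845 reads at 0 h, 5 and 13 at 48 h and 94 and 87 at 120 h, corresponding to 5.20 and 5.13, -2.38 and -1.06, and 1.78 and 1.85 on the log2 scale. It fell by 6.98 (SE 0.46, adjusted p = 7.04e-13). Its rise of 2.96 (SE 0.46, adjusted p = 5.83e-06) was not called without 114 h replicate A (2.67) or 54 h replicate B (2.63). Of 23 interferon and antigen presentation genes, a list without Xaf1, 0 were members, 2 were called lower and 15 higher. Fabp3, a fatty acid carrier, fell by 3.77 and rose by 4.35 (SE 0.22 for both) and was the 1 member among 31 lysosomal and lipid catabolic genes, of which 8 were lower and 9 higher. Stra8, which is needed for entry into meiosis, was the 1 member among 24 germline genes, of which 2 were lower and 1 higher. It fell by 4.15 (SE 0.80, adjusted p = 8.71e-05), while its later difference of 2.66 (SE 0.80, adjusted p = 0.00709) did not pass.

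Lists with 0 members were also measured. Of 27 p53 target genes 5 were called lower and 10 higher, of 24 immediate early and MAPK feedback genes 11 and 10, of 5 metallothionein and zinc export genes 3 and 0, of 22 NRF2 target genes 1 and 2, and of 25 imprinted genes 2 and 9. The immediate early list holds the AP-1 subunits. Of its 24 genes 8 were called both lower and higher, with medians of -0.72 and 0.71. Fos, named after its values were seen, fell by 2.71 and rose by 2.93, with means of 0.86, -0.37 and 3.43 at 0 h, 48 h and 120 h. Values of the other AP-1 subunits are not given here, and the part of AP-1 in the members' course was not tested.

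Members also included transcription factors of the trophoblast. Tfap2c stood at 3.94 and 3.79 at 0 h, 0.43 and 0.11 at 48 h and 6.37 and 6.44 at 120 h. Tead4, the partner of YAP in that lineage, stood at 5.03 and 4.83, 2.01 and 2.02, and 4.27 and 4.10. Tfap2c fell by 2.93 and rose by 5.56 (SE 0.24 for both), and Tead4 fell by 4.69 and rose by 3.01 (SE 0.21 for both). Esx1, a placental homeobox gene, rose by 3.24 (SE 0.35). Its fall of 2.24 (SE 0.35, adjusted p = 4.23e-06) was not called without 42 h replicate A (-1.8) or 6 h replicate B (-2.06).

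Marker genes of other cell types were summed over the same course. The summed CPM of 11 trophoblast markers, of which Tfap2c, Tead4 and Esx1 were members, was 74.6 and 69.0 at 0 h, 30.0 and 28.9 at 48 h and 190.9 and 203.5 at 120 h. Without these 3 genes, which were chosen for falling, it was 23.9 and 23.9, 24.1 and 23.2, and 83.3 and 93.1, so the lower sum at 48 h was that of the members. Among the 8 others Cdx2 and Gata3 had 0 reads in replicate A at 0 h. The sum of 6 squamous and simple epithelium markers, with Krt19 as 1 member, was 223.6 and 235.9, 55.1 and 56.9, and 537.9 and 570.9. Without Krt19 it was 206.0 and 218.2, 51.5 and 53.4, and 387.8 and 413.1. For 15 primitive and visceral endoderm markers, with Sox7 as 1 member, it was 345.3 and 324.2, 275.7 and 270.9, and 838.7 and 809.1, and without Sox7 342.3 and 321.6, 275.4 and 270.7, and 837.3 and 807.3.

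The 12 feeder fibroblast and mesenchyme markers held 0 members and summed to 101.9 and 108.1 CPM at 0 h, 57.1 and 55.4 at 48 h and 226.7 and 208.8 at 120 h, with Col3a1 and Dcn at 0 reads in both 0 h libraries. The 4 mesothelium markers, with Msln and Krt19 as members, summed to 28.9 and 29.3, 54.3 and 45.3, and 208.1 and 217.8. Without both members they summed to 7.4 and 7.3, 50.7 and 41.7, and 52.3 and 54.2. The 6 blood and endothelium markers held 0 members and went from 98.2 and 95.6 to 18.9 and 20.3 and then 23.4 and 21.8. Most of the 0 h sum was Pecam1, with 6.56 and 6.52 log2 CPM at 0 h, 3.01 and 3.05 at 48 h and 3.82 and 3.85 at 120 h. Gata1 was also lower at 48 h than at 0 h. Cd34, Tal1 and Etv2 were higher at 48 h than at 0 h, and Kdr was highest at 120 h, so the sum does not stand for each marker. At 96 h the trophoblast sum was 105.8 in A and 319.8 in B. The part of these cell types in the members' course was not tested.

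The order in time was described from the midpoints. The time of loss is the first time point from which the mean stayed at or below the midpoint of the 0 h and 48 h means until 48 h, and the time of regain the first from which it stayed at or above the midpoint of the 48 h and 120 h means. Loss had a median of 18 h, with 79 members lost by 12 h, 57 at 18 h or 24 h and 57 at 30 h or later. Regain had a median of 78 h, with 69 members regained by 72 h, 74 from 78 h to 96 h and 50 at 102 h or later. With 96 h left out, these became 71, 66 and 56. Computed in each replicate alone, the time of loss was within 6 h in 167 members and the time of regain in 137.

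**Figure D5:**
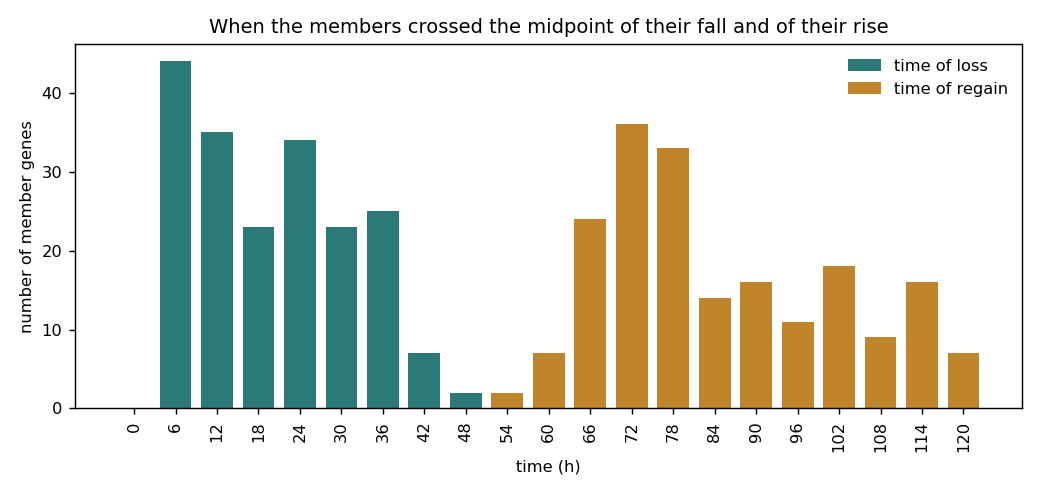
Number of members (vertical axis) by the time point (h) at which their mean crossed the midpoint of its fall (green) and of its rise (orange). Losses were most frequent at 6 h, with 44 members, and regains at 72 h, with 36.

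Synpo, Bmp7 and Klhdc7a were among the earliest lost, at 6 h. Sh3rf2 and 4933402E13Rik were the latest, at 48 h, followed by Cited4 at 42 h. Kif19a and Fam189a2 were regained first, at 54 h, and Ism2 at 60 h, whereas Mroh4 and BC022960 stayed above the midpoint only from 120 h. BC022960 had already stood at 2.06 at 72 h and 2.84 at 96 h, and was at 1.18 at 114 h. Mroh4 had stood at -0.97 at 102 h and was at -2.06 at 114 h. The replicates alone differed for some of these genes, with times of loss of 6 h in A and 30 h in B for Klhdc7a, 48 h and 24 h for 4933402E13Rik, and times of regain of 120 h and 72 h for BC022960. The members differed in the first 6 h. In 95 members the 6 h mean was lower than the 0 h mean by 1 or more, in 25 it was higher by as much, and in 73 it lay between. The 95 had median times of loss and regain of 12 h and 78 h, the 73 had 24 h and 84 h, and the 25 had 36 h and 96 h. The 6 h value enters the time of loss, so the first of each pair is partly fixed by the split, and no test was made. Regain at 102 h or later was seen in 16 of the 95, 24 of the 73 and 10 of the 25. Besides Tinagl1, Anxa2, Lmna, Cavin1, Hbegf, Wnt6 and Tead4, the 25 included Msln, Gad1 and Prdm14.

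Receptors were mixed in time. Kit, the stem cell factor receptor, was lost by 6 h and regained by 72 h, with falls and rises of 1.33 and 1.4 (SE 0.13 for both) in the unused libraries. Fgfr3, a receptor of fibroblast growth factors, rose by 3.51 (SE 0.42, adjusted p = 9.42e-08), and its earlier difference of -1.51 did not pass (adjusted p = 0.00364). Itgb3, the beta chain of vitronectin receptors, fell by 4.67 and rose by 3.92 (SE 0.32 for both) and was regained at 102 h. Atp6v0a4, a subunit of the proton pump, had the next largest fall after Tinagl1 from 6 h to 24 h, with -4.1 (SE 0.44, adjusted p = 2.99e-08).

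Jdp2, an AP-1 repressor, stood at 3.03 and 2.96 at 0 h, -2.38 and -2.65 at 48 h and 2.92 and 3.06 at 120 h. It fell by 6.67 (SE 0.40, adjusted p = 8.49e-14), with 1 and 2 reads at 42 h, and rose by 3.24 (SE 0.40). Gprc5a, a retinoic acid-induced receptor, fell by 6.69 and rose by 5.3 (SE 0.20 for both). Gad1, which makes the transmitter GABA, fell by 6.96 (SE 0.54, adjusted p = 2.39e-11), with 3 and 0 reads at 42 h, and rose by 3.04 (SE 0.54, adjusted p = 4.03e-05). Ly6g6e, a small surface protein of the Ly6 family, fell by 4.02 and rose by 3.54 (SE 0.46 for both).

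Noncoding members were few. Neat1, a long noncoding RNA of paraspeckles, was measured in poly-A RNA alone, which per the paper misses noncoding RNAs processed by nuclease P. It stood at 7.64 and 7.69 at 0 h, 4.76 and 4.64 at 48 h, 7.32 and 7.37 at 78 h and 8.05 and 8.23 at 120 h. After 78 h its mean was lower again, with 6.28 at 90 h and 5.97 at 108 h, and its time of regain was 114 h. In the unused libraries Neat1 fell by 2.69 (SE 0.13, adjusted p = 1.17e-15) and rose by 1.55 (SE 0.13, adjusted p = 1.39e-10). The others were the processed transcripts 2310002F09Rik and 3110039I08Rik, the antisense gene 1110046J04Rik and the transcribed processed pseudogene BC022960. These 4 passed neither test. For BC022960 the differences were -0.28 (adjusted p = 0.346) and 0.87 (adjusted p = 0.00351), and for 1110046J04Rik -1.71 (adjusted p = 0.0202) and 0.56 (adjusted p = 0.469).

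Members that followed each other along a chromosome had start sites within 50 kb in 11 pairs. Besides Stat5a with Stat5b and Cryab with Hspb2, the pairs included Dlx3 with Dlx4, Tshz1 with Zadh2, Vill with Plcd1, Got1l1 with Adrb3, Serpinb6c with 1110046J04Rik, Catsperg1 with 2200002D01Rik and Klk10 with 2310002F09Rik. Neighbours could keep different times. Vill and Plcd1 were both lost at 24 h and regained at 78 h and 84 h, while Catsperg1 was lost at 6 h and 2200002D01Rik at 42 h. Klk10 was regained at 114 h and 2310002F09Rik at 60 h.

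By the rule, the members are a part of the genes lost at 48 h. By the same threshold, 765 genes were lost at 48 h with a 0 h mean of 0 or more, and 25.2% of them were the members. Of the 765, the 120 h mean was at or below the 48 h mean in 65, above it by less than 1 in 185, by 1 to 2 in 261 and by 2 or more in 254. The 572 that were no members had a median difference of -1.57 at 42 h against 6 h, with 231 (40.4%) called lower, and 0.31 at 114 h against 54 h, with 89 (15.6%) called higher. From 6 h to 24 h, 85 of them (14.9%) were called lower, against 43% of the members. At 114 h against 6 h 191 of them (33.4%) were called lower. AP-1 letters stood in 5.9% of their promoter windows, whose median ratio of observed to expected CpG was 0.54. The opposite course, a peak at 48 h by the same threshold, was met by 79 genes. Whether the members differ from the 572 genes in these shares was not tested.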

How the data were processed

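Poly-A RNA of 42 libraries, 21 time points with replicates A and B, was analysed. Per their methods, the authors used Trim Galore for trimming, TopHat2 for alignment (mm10) and HTSeq for counts over GENCODE vM2 genes, normalized library sizes with edgeR and applied voom, with versions not given in the sources used here. The values deposited by the authors are log2 CPM for 14296 genes in each library, after their filter on low counts. They mapped to whole reads within 2.91e-08 of a read, which gave depths and the reads quoted. Biotypes and positions came from GENCODE vM21 by gene identifier, with 119 genes unmatched. The values include an offset of 0.5 reads, on which differences of genes with few reads depend.

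Time points were compared with limma 3.58.1 in R 4.3.3 (lmFit on a factor of 21 time points over all samples, eBayes with a trend, two-sided, 21 residual degrees of freedom). Within each contrast, Benjamini-Hochberg adjustment ran over 14296 genes, with adjusted p < 0.0001 as the threshold. Contrasts with 0 h, 48 h and 120 h, which chose the members, were not tested. The letters A and B name duplicate cultures. Over 210 pairs of time points, deviations of same-lettered libraries correlated by 0.08 on average (-0.474 to 0.598), so the letters were not taken to pair the libraries. The fit was tested on simulated data. Alternatives were other thresholds, scalings and low points of the rule, a replicate block, voom weights and single libraries left out. Python 3.11.15, pandas 2.3.3 and numpy 2.4.6 served for the rest.

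The members, the gene lists and the tests were chosen with earlier results of these data known. Named genes are the 10 with the largest smaller difference, up to 4 members of each list, the 2 with the largest passing change in each contrast and direction, the noncoding members, those nearest the threshold, neighbours within 50 kb and the earliest and latest in time. Some genes that this rule names are not reported here. Of the other members, Wnt6, Tfap2c, Fgfr3, Pdgfb, Hbegf, Sox7, Vegfa, Esx1, Tfcp2l1, Kit, Tead4 and Klf2 were named after their values were seen.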

Additional observations from a re-analysis of the deposited data

How the results depend on the processing

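The number of members depended on the thresholds. It was 402 with a difference of 1.5, 55 with 3, and 82 on a log2(CPM + 1) scale. It was 292 by the values of replicate B alone (without replicate A) and 245 by those of replicate A alone (without replicate B), a range of 245 to 292. With the low point taken at 42 h it was 235, of which 144 were among the 193, and at 54 h 149, of which 125 were. Scaling by library totals gave 252, all 193 included, and moved the median of all genes by 0.2 between 0 h and 48 h.

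In the tests, the replicate block gave 146 members lower at 42 h than at 6 h and 144 higher at 114 h than at 54 h, and changed no count of calls by over 1.5 times. The count from 102 h to 114 h, 14 members, became 22 with voom weights, 23 on the log2(CPM + 1) scale and 22 in a fit without the 96 h libraries, which was added after seeing the data. With single libraries left out, the lowest and highest counts were 120 and 127 for 42 h against 6 h, 52 and 58 for 24 h against 6 h, 39 and 48 for 42 h against 24 h, 125 and 128 for 114 h against 54 h, 46 and 52 for 78 h against 54 h, 23 and 33 for 102 h against 78 h, 7 and 9 for 114 h against 102 h and 56 and 62 for 114 h against 6 h, where both directions are counted together (81 with every library). Of the alternative values computed for 80 differences of single genes, 692 kept their direction and side of the threshold, 19 lost the call, 1 gained it and 0 reversed. Depth limits the 7 members with 3 reads or fewer at 48 h. The causes were not tested.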
